A study of Mus musculus with 4 samples.

Results

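Small leucine-rich proteoglycans (SLRPs) are secreted core proteins built of leucine-rich repeats, most of which carry chondroitin, dermatan or keratan sulfate chains. They coat collagen fibrils, set fibril diameter and spacing, and hold growth factors such as TGF-β in the matrix that fibroblasts, bone and tendon cells lay down. Asporin (Aspn), osteomodulin (Omd) and osteoglycin (Ogn) are encoded side by side on mouse chromosome 13, and decorin (Dcn), lumican (Lum), keratocan (Kera) and epiphycan (Epyc) side by side on chromosome 10. Biglycan (Bgn) lies on the X chromosome, and fibromodulin (Fmod) and Prelp on chromosome 1. These 10 genes were picked by name from the 31806 gene names on the array, each with 1 probe, and 7 of them gave a signal well above background on at least 1 of 4 arrays.

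RNA came from mouse embryonic fibroblasts (MEFs) on the C57BL/6J background, cultured from mid-gestation embryos, grown in DMEM with 10% serum and taken in logarithmic growth. The groups were G2KO MEFs (CycG2-/-), the WT MEFs of that comparison (CycG2+/+), DKO MEFs (CycG1-/-CycG2-/-) and the WT MEFs of the second comparison (CycG1+/+CycG2+/+), with 1 Cy3-labelled Agilent array per group and all 4 arrays on 1 slide. In the line behind the DKO MEFs all coding exons of Ccng1 had been replaced with a neomycin cassette, and DKO mice came from crosses between the single mutants. No group had a second array, so no comparison has a replicate check or a test; the sources used here do not say how many embryos stood behind each RNA. Feature Extraction's own error of a member's level was 10.0% to 14.0% wherever it was well above background, which covers the scan of 1 array and not the spread between cultures. For a measured log2 ratio this error came to 0.20 to 0.26.

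A level is given here as the signal of a probe divided by the 75th percentile of all non-control spots of its array, and levels are compared only for the same probe between arrays. "Dim" means not well above background. For a dim array, the dimmest signal still well above background stood in for the level, so such a ratio is written as "at least". Over 19810 genes, log2 ratios of one WT-labelled array over the other had an SD of 1.04 and a median absolute value of 0.44. This SD is a spread over genes in 1 pair of arrays. It does not measure how any single gene varies between cultures, but it is the one yardstick that the labels allow. The labels of the first comparison are in doubt, and with these exchanged, the WT pair would be the G2KO-labelled and the DKO WT array, with an SD of 0.57 over 20216 genes. Differences are therefore set against both SDs, as a rough scale only.

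The labels of the first comparison need care. Ccng1 had a level of 1.66 in the WT MEFs of the second comparison and was dim in DKO MEFs, at least 228-fold lower. It read 1.98 in the RNA labelled G2KO and 9.45 in the RNA labelled WT beside it, a 4.78-fold difference. Ccng2, the targeted gene of both knockouts, read 0.0910, 0.104, 0.0619 and 0.0806 on the arrays labelled G2KO, its WT, DKO and its WT, so the probe of Ccng2 does not tell a knockout array from a WT array. The direction that the labels give for Aspn in the G2KO comparison is the opposite of the direction stated in the study. The same held for Sox2 and En2, which the study lists as higher in G2KO MEFs, and for Pdgfra, listed as lower. By the labels their log2 ratios were -8.49 or beyond, -9.15 and at least 7.93. The 2 arrays of the first comparison are called below by their labels, as the G2KO-labelled and the G2WT-labelled array. The DKO pair is called DKO MEFs and DKO WT. Signs in the first comparison hold only as far as its labels do, and exchanging them turns each sign. The study ascribes raised Xist in its G2KO MEFs to a female origin of these cells. The cultures of this comparison may therefore differ in sex as well as genotype, which cannot be told apart here. The G2WT-labelled array also stood apart by neural progenitor markers, with a summed level of 45.3 over 6 genes against 1.31 to 2.14 elsewhere; Nes (28.0) and En2 (14.8) made up most of that sum, while Sox1 (0.105) was lowest there and Pax6 was dim. The DKO array stood apart by 10 mesothelial markers, genes of the lining of body cavities, with a summed level of 149.97 against 0.662 to 1.58 elsewhere. All 12 fibroblast markers were well above background on 3 arrays, and 10 of them on the G2WT-labelled array.

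Aspn, Omd and Ogn, the chromosome 13 genes, each read highest on the same 2 arrays, so their promoters are shown first. For Ogn the log2 gap from these down to DKO MEFs was 1.30, its smallest, so it did not split into 2 high and 2 low arrays. Each sequence runs 5′ to 3′ from 250 bases before to 50 bases after the start site, from RefSeq on GRCm38.p6, plus strand. The capitals mark the letters of 3 motifs that were found on either strand: the TATA box (TATAAA), the Runx motif (TGTGGT) and the TEAD motif (GGAATG).
Aspn promoter, chr13:49544193-49544492: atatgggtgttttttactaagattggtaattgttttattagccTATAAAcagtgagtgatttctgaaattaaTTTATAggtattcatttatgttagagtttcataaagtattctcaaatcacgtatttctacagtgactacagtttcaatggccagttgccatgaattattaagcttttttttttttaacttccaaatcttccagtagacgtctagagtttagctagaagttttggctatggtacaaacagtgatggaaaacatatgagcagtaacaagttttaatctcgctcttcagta
Omd promoter, chr13:49582212-49582511: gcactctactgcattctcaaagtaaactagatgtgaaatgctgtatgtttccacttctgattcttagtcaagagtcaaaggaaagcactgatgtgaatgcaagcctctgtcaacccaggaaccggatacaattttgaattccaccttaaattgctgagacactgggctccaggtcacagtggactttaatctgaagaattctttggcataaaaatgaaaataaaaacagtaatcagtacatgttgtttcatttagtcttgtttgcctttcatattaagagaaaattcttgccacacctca
Ogn promoter, chr13:49607765-49608064: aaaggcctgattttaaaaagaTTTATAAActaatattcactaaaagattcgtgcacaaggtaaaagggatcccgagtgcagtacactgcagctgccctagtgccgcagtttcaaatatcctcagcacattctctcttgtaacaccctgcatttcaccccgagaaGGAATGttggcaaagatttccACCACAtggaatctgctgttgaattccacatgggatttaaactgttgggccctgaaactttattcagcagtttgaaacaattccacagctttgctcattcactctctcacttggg

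TATAAA stood at position -207 on the plus strand and -178 on the minus strand of the Aspn promoter. In the Ogn promoter it stood at -229 (minus strand) and -227 (plus strand), which overlap, with GGAATG at -86 and TGTGGT on the minus strand at -65. None of the 4 motifs searched, the fourth being the AP-1 motif TGANTCA, was found in the Omd promoter. Over all 32851 promoters of the table, TATAAA was found in 13.6%, TGTGGT in 16.8%, GGAATG in 14.7% and TGANTCA in 7.81%. The GC content was 31.0% for Aspn, 37.7% for Omd and 42.3% for Ogn, against a median of 52.7% over the table. Promoters of 8 of the 10 members were in the table; Dcn and Lum were not. A match of letters is a description and not a site of binding.

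Asporin binds type I collagen and TGF-β and is known from periodontal ligament and cartilage. Its probe (mm9, chr13:49662479-49662538, exonic, from base 1800 of the transcript) read 3.40 on the G2KO-labelled array, 0.00528 (dim) on the G2WT-labelled array, 0.00184 (dim) on the DKO array and 6.60 on its WT array. Aspn was thus bright on 2 arrays and dim on the other two, with nothing between. The G2KO-labelled array exceeded the G2WT-labelled array at least 474-fold, and DKO MEFs lay at least 903.4-fold below their WT. The bright arrays differed from each other by 0.96 on the log2 scale, which is below the SD of 1.04 and above that of 0.57, and the dim arrays have no order. As in all bulk RNA, fewer cells that express a gene and less RNA per cell cannot be told apart.

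Osteomodulin, a keratan sulfate proteoglycan known from mineralised tissue, followed the same arrays. Its probe (mm9, chr13:49687847-49687906, 25.4 kb from that of Aspn) read 1.12 on the G2KO-labelled array, 0.0214 on the G2WT-labelled array, 0.0348 in DKO MEFs and 1.94 in their WT. It was well above background on all 4 arrays, so both ratios were measured: 52.3-fold higher on the G2KO-labelled array and 55.6-fold lower in DKO MEFs. The 2 high arrays differed by 0.79 (log2) and the 2 low arrays by 0.70, both below the SD of 1.04 and above that of 0.57.

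Osteoglycin, also called mimecan, is found in bone and connective tissue. Its probe (mm9, chr13:49719549-49719608, 57.1 kb from that of Aspn) read 3.92, 0.203, 1.59 and 23.1 on the arrays labelled G2KO, its WT, DKO and its WT. Ogn was 19.3-fold higher on the G2KO-labelled array and 14.5-fold lower in DKO MEFs than on the respective WT array. Unlike Omd, every neighbouring pair in its order (WT of the DKO comparison, array labelled G2KO, DKO, array labelled WT) was separated by more than either SD, with log2 gaps of 2.56, 1.30 and 2.97.

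**Figure D1:**
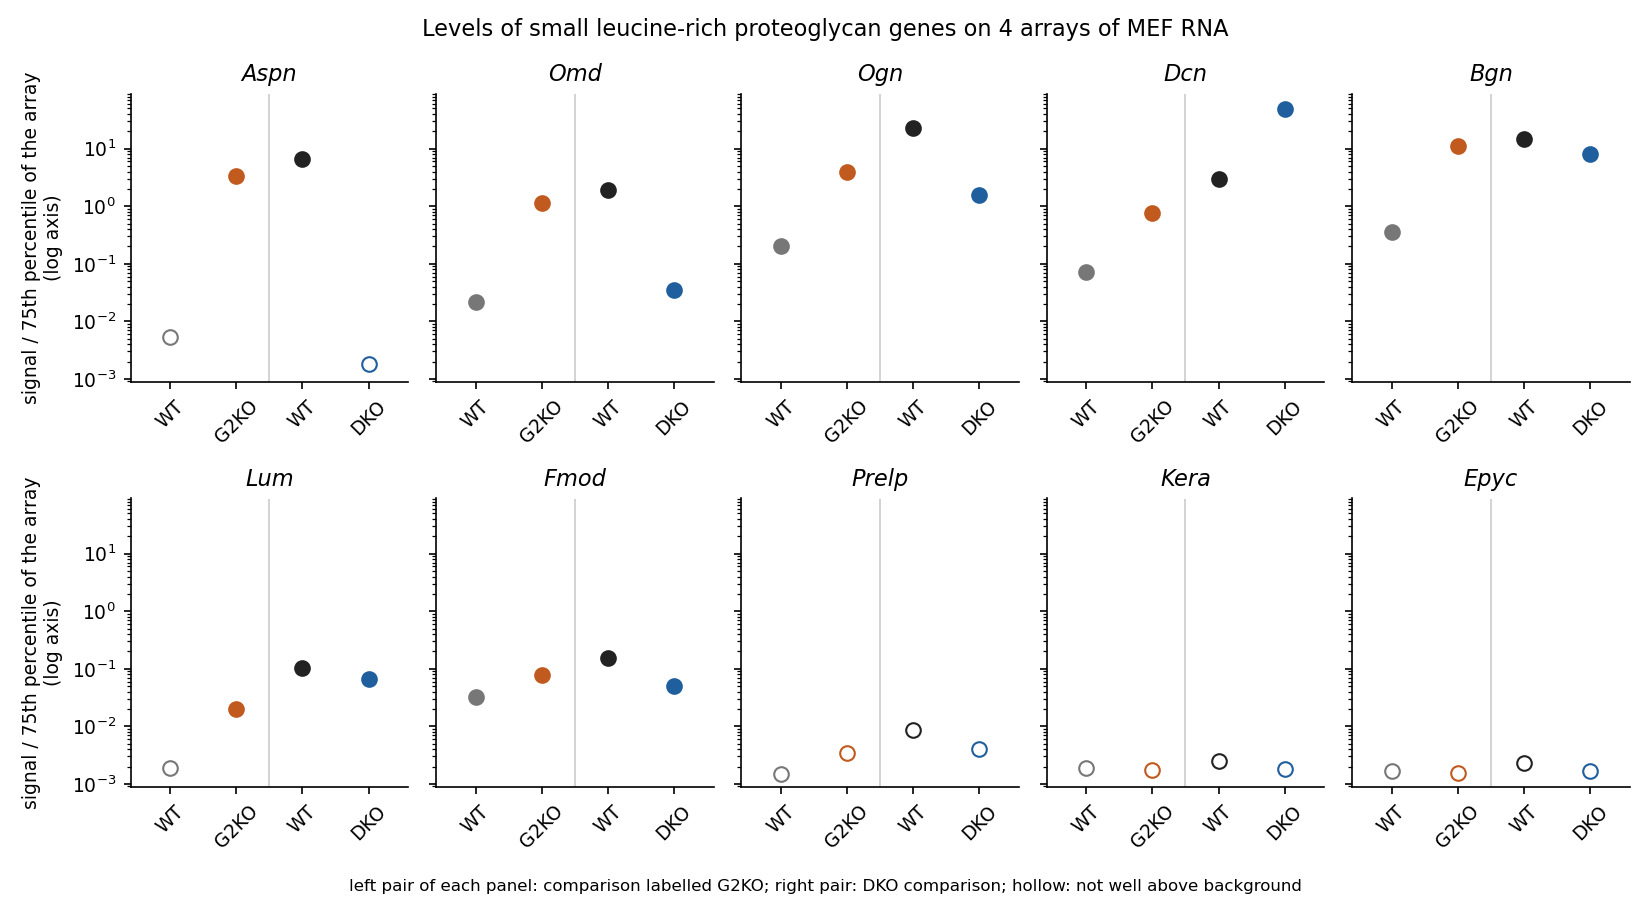
Levels of the 10 members on the 4 arrays. The y axis is the signal over the array's 75th percentile on a log axis; each point is 1 array, bars (smaller than most points) are the error model of the scan, and hollow points were dim and carry no bar. Aspn is bright on the G2KO-labelled array (3.40) and on the DKO WT array (6.60) and dim on the other two, Dcn is highest in DKO MEFs (48.99), and Prelp, Kera and Epyc are hollow throughout.

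The genes around this trio are given by the reference annotation in the order Ippk, Cenpp, Ecm2, Aspn, Omd, Ogn, Nol8, Iars, with Cenpp spanning Aspn. Besides Omd and Ogn, 21 gene names had a probe within 500 kb of the Aspn probe, and 14 of them could be compared in each pair. On the G2KO-labelled array, 1 of these 14 was at least 4-fold higher (Ninj1, log2 ratio 2.01) and none lower. In DKO MEFs, 1 was at least 4-fold lower (Fgd3, -2.05) and none higher. Over all genes, 3.71% were higher in the first comparison and 4.03% lower in the second, and 1 gene of 14 cannot be told from these shares. The 14 genes had median log2 ratios of 0.12 and -0.31. Cenpp, a centromere protein gene with its probe at -102.4 kb from that of Aspn, had log2 ratios of -0.48 and -1.02, and Nol8, a nucleolar protein gene at 111.4 kb, of 0.18 and -0.98. Ecm2, a related matrix gene at -34.4 kb, was dim on all 4 arrays. A probe named only by a transcript identifier, at 60.05 kb and so just past Ogn, had log2 ratios of 0.33 and -0.03. It read only 0.0166 to 0.0283. The dimmest signals well above background lay at 0.0066 to 0.0102, so its flat ratios say little.

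**Figure D2:**
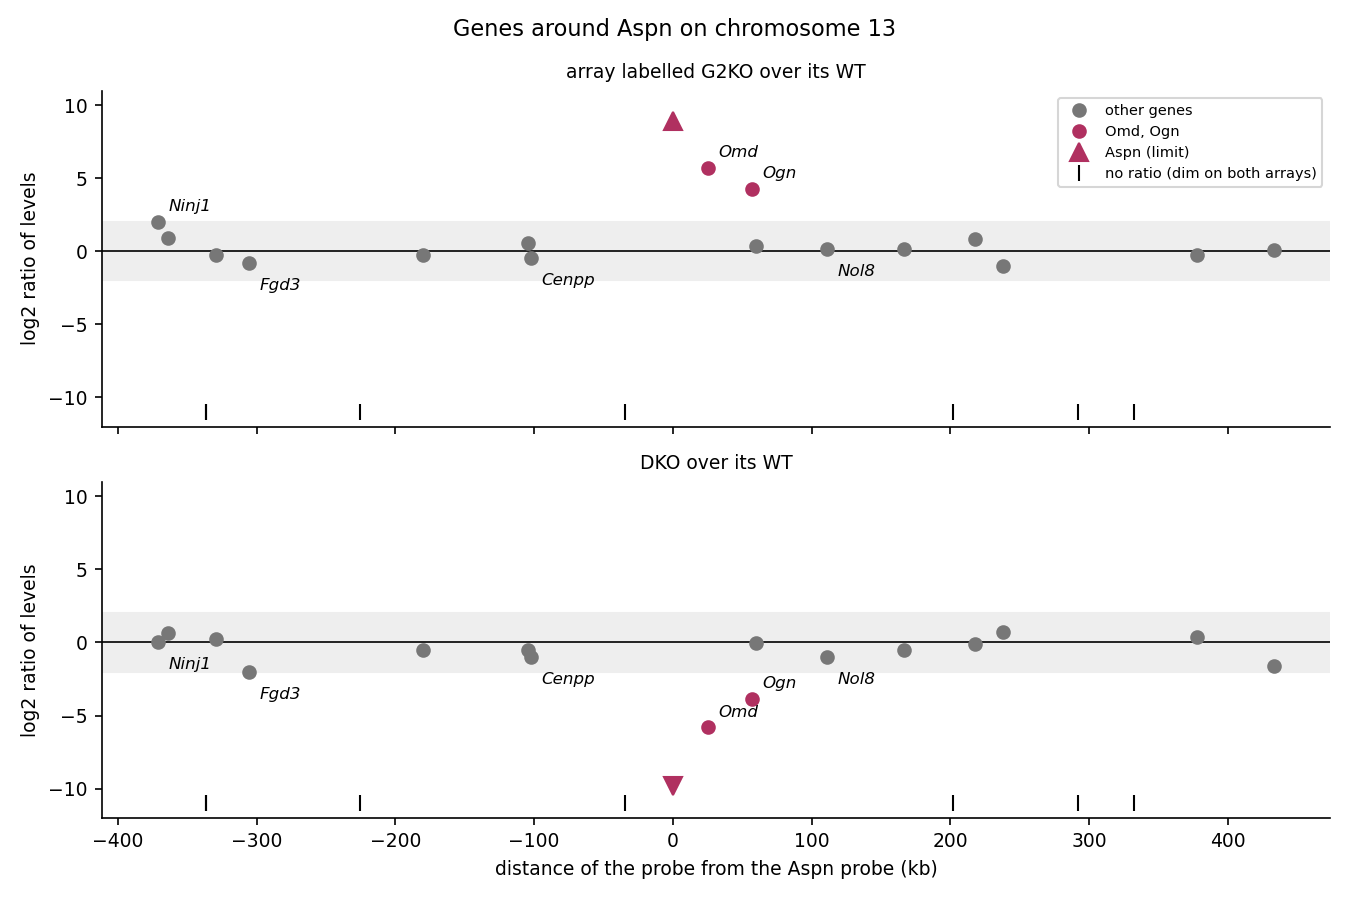
Log2 ratios of genes with a probe within 500 kb of the Aspn probe, against the distance of the probe in kb. The upper panel is the G2KO-labelled array over its WT and the lower panel DKO over its WT; triangles mark Aspn as a limit, ticks at the bottom mark genes without a ratio, and the grey band spans 4-fold either way. Aspn, Omd (5.71 and -5.80) and Ogn (4.27 and -3.86) stand outside the band in both panels, while Cenpp and Nol8 lie inside it.

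Decorin and biglycan are close relatives that bind collagen and TGF-β; decorin also binds the EGF receptor, and biglycan the Toll-like receptors Tlr2 and Tlr4. Their probes are printed because they separate the pair in DKO MEFs.
Dcn probe, mm9, chr10:96980233-96980292: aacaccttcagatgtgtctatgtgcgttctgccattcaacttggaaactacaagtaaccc
Bgn probe, mm9, chrX:70738554-70738613: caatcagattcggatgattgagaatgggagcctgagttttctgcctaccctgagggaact

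Dcn read 0.757 on the G2KO-labelled array, 0.0722 on the G2WT-labelled array, 48.99 in DKO MEFs and 2.95 in their WT. It was the only measured member above its WT level in DKO MEFs, by 16.6-fold, and on the DKO array it stood above all 3 other arrays. On the G2KO-labelled array it was 10.48-fold higher than on the G2WT-labelled array. No neighbouring pair in its order lay within either SD, the smallest log2 gap being 1.96.

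Bgn read 11.3, 0.351, 8.24 and 14.7 in the same order of arrays. It was 32.3-fold higher on the G2KO-labelled array than on the G2WT-labelled array, but 1.78-fold lower in DKO MEFs than in their WT, a log2 ratio of -0.84 that is smaller in size than the SD of 1.04 and larger than that of 0.57. The 3 high arrays were separated by log2 gaps of 0.37 and 0.46, and the next gap, down to the G2WT-labelled array, was 4.55.

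Lumican and fibromodulin are keratan sulfate proteoglycans of skin, tendon and cornea. Lum, 55.0 kb from Dcn by its probe (mm9, chr10:97035210-97035269), read 0.0198 on the G2KO-labelled array, 0.00190 (dim) on the G2WT-labelled array, 0.0674 in DKO MEFs and 0.103 in their WT. The ratio was at least 2.77-fold upward on the G2KO-labelled array, a limit from which a passage of 4-fold cannot be told; with the dim signal taken as read, the log2 ratio was 3.38. In DKO MEFs Lum was 1.53-fold lower. Fmod (mm9, chr1:135943998-135944057) read 0.0787, 0.0318, 0.0504 and 0.156, which gave ratios of 2.47-fold higher on the G2KO-labelled array and 3.09-fold lower in DKO MEFs. Each of the 3 log2 gaps in its order was below the SD of 1.04 and above that of 0.57.

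Prelp, Kera and Epyc were dim on all 4 arrays and have no ratio. Kera was printed on the array as 10 spots of the same probe, and their mean was no higher than 0.00252 on any array. These genes, known from cornea, cartilage and other matrix-rich tissue, were thus not detectable at this signal in any of the MEF preparations. Between Lum and Kera lies a probe named 4930473O22Rik, 73.4 kb from Dcn, which read 0.209 in the WT MEFs of the DKO comparison and was dim on the other 3 arrays, with a log2 ratio of -4.84 or beyond in DKO MEFs.

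Counted together, 5 of the 7 measured members were at least 4-fold higher on the G2KO-labelled array than on the G2WT-labelled array and none lower, where 3.71% of all genes compared were higher, 2.02% lower and 5.73% different. Their median log2 ratio was 4.27, against -0.17 over all genes. In DKO MEFs 3 of 7 were at least 4-fold lower (Aspn, Omd and Ogn) and 1 higher (Dcn), where 4.03% of all genes were lower, 4.04% higher and 8.07% different. The median of the members was -1.63, against 0.03 over all genes. The chromosome 13 trio lay on one side, whereas Dcn (4.05) and its chromosome 10 neighbour Lum (-0.61) lay on opposite sides of 0.

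Between the 2 arrays labelled WT, all 7 measured members were at least 4-fold higher on the DKO WT array, where 4.63% of all genes were higher, 2.76% lower and 7.39% different. The ratios ran from 4.88-fold for Fmod through 14.3-fold (at least) for Lum, 40.9-fold for Dcn, 41.9-fold for Bgn, 90.3-fold for Omd and 114-fold for Ogn to at least 921-fold for Aspn. With normexp background correction, Fmod (log2 ratio 1.52) and Lum (1.81) fell short of 4-fold and 5 of 7 members stayed past it. For each of the 5 members measured on all arrays, the log2 ratio between the arrays labelled WT was larger in size than its ratio in either knockout comparison. This ranking holds only with the labels as given. With those of the first comparison exchanged, the WT pair would be the G2KO-labelled and the DKO WT array, whose member ratios ran from -0.37 to -2.56. The ranking would then turn round for all 5 members. Each one's ratio between the WT arrays would be smaller in size than its ratio in either knockout comparison. In DKO MEFs these were -5.80 for Omd, -3.86 for Ogn, 4.05 for Dcn, -1.63 for Fmod and -0.84 for Bgn.

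**Figure D3:**
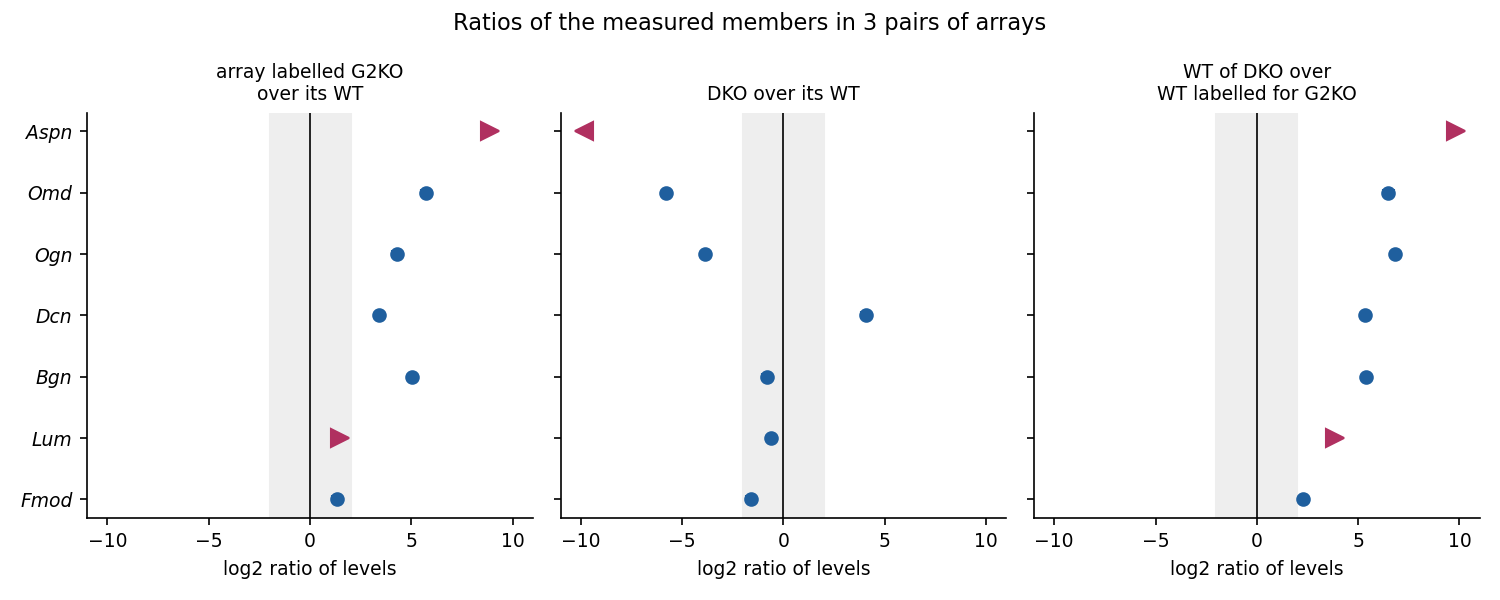
Log2 ratios of the 7 measured members in 3 pairs of arrays. Circles are measured ratios with the error of the scan (smaller than the points), triangles are limits that point away from 0, and the grey band spans 4-fold either way. All 7 lie right of the band between the arrays labelled WT (2.29 to at least 9.85), and only Dcn lies right of it in DKO MEFs (4.05).

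The G2WT-labelled array was the lowest of the 4 for 6 of these genes, and for Aspn it was dim together with DKO. Against the other WT array as control, all 7 members were lower on the G2KO-labelled array, with log2 ratios from -0.37 (Bgn) to -2.56 (Ogn). Of these, 2 were past 4-fold, Ogn by 5.90-fold and Lum by 5.18-fold, where 1.39% of all genes were lower. DKO MEFs set against the G2WT-labelled array gave the opposite sign to their own comparison for 5 of 6 measured members, among them Omd (1.62-fold higher) and Ogn (7.83-fold higher), and Aspn was dim on both. There 4 of 6 were at least 4-fold higher, where 5.80% of all genes were. Dcn kept its sign, at 679-fold higher in DKO MEFs. These comparisons share arrays with those above and are no independent evidence.

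By the distance between centred log2 levels on the 4 arrays, the genes most like Aspn included Alx1, a probe named only by a transcript identifier, Igfbp2, Lrrc17, A530047J11Rik, Cxcl1, Pdgfra, Cxcl5 and Lrrc15, and Omd came at rank 30. With 4 arrays this is a description only. Alx1, a homeobox gene of craniofacial mesenchyme, read 1.33 and 2.12 on the arrays where Aspn was bright and was dim on the other two. Pdgfra, the PDGF receptor that marks fibroblasts, read 1.75, 0.00223 (dim), 0.0296 and 5.22 on the arrays labelled G2KO, its WT, DKO and its WT. The chemokine Cxcl5 was 8.09 on the G2KO-labelled array and 1.53 on the DKO WT array, and Lrrc15, a membrane protein with leucine-rich repeats, was 10.9 and 10.54 there.

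Most like Dcn were Samd5, Adamts2, 5830408B19Rik, Hopx and Six2. Adamts2, the protease that trims the amino-terminal propeptide of fibrillar procollagens, read 0.193, 0.0443, 11.4 and 0.815 on the arrays labelled G2KO, its WT, DKO and its WT. Six2, a homeobox gene of embryonic mesenchyme, read 1.99 in DKO MEFs and 0.159 in their WT. Like Dcn, both were highest on the DKO array.

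The enzymes of sugar chain synthesis that were past 4-fold in DKO MEFs were 4 sulfotransferases, each lower. Of 25 genes of chondroitin and dermatan sulfate synthesis, 3 were lower in DKO MEFs by 4-fold or more, where 4.03% of all genes were, and none higher, namely Chst11 (0.0569 against 0.597), Chst3 (0.0235 against 0.227) and Chst15 (0.0846 against 0.375), with a median log2 ratio of -0.48. None of the 25 was higher and 1 was lower (Chsy3) on the G2KO-labelled array, where 2.02% of all genes were lower. The median of the 25 there was 0.24. Of 11 genes of keratan sulfate synthesis, all could be compared in DKO MEFs, where 1 was lower by 4-fold or more (Chst2, 0.210 against 1.08) and none higher. B4galt4 (3.85-fold) and Chst1 (3.67-fold) were higher but short of 4-fold, and the median log2 ratio of the list was 0.26. In the other comparison 8 could be compared, of which 1 was lower (Chst1) and none higher, with a median of 0.81. A count of 1 gene in lists this short cannot be told from the share over all genes.

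Among 12 collagens that SLRPs bind or sit beside, 2 were at least 4-fold lower in DKO MEFs and none higher, with a median log2 ratio of -1.02. Over all genes, 4.03% were lower there and 4.04% higher. Col2a1, the cartilage collagen, read 0.0466 in DKO MEFs and 6.54 in their WT, and Col12a1, a fibril-associated collagen, 1.26 and 18.4. Col1a1, the main fibril collagen, read 41.0 and 41.9 in that pair and 37.2 and 54.3 on the arrays labelled G2KO and WT. Col3a1 read 24.4 on the G2KO-labelled array and 1.77 on the G2WT-labelled array, 13.7-fold apart, and 8.99 and 30.01 in DKO MEFs and their WT. Of the 12, 3 were at least 4-fold higher on the G2KO-labelled array, none lower, and the median was 1.15. Over all genes, 3.71% were higher there and 2.02% lower.

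Of 25 measured ligands, receptors and proteases of SLRPs, 3 were higher and 5 lower in DKO MEFs by 4-fold or more, with a median log2 ratio of -0.17. Over all genes, 4.04% were higher there and 4.03% lower. Mmp3, a matrix metalloprotease that cuts decorin, read 1.03 in DKO MEFs and 12.7 in their WT, and Erbb4, a receptor of the EGF receptor family, was dim in DKO MEFs and read 0.0539 in their WT. Bmp2 was dim in the WT MEFs and read 0.102 in DKO MEFs, and Cd14, a co-receptor of Toll-like receptors, read 2.88 against 0.348. In the comparison labelled G2KO, 9 of the 25 were at least 4-fold higher and none lower, with a median of 0.66. Of all genes compared there, 3.71% were higher and 2.02% lower. Among 9 other genes of the SLRP family, 7 could be compared, and in DKO MEFs 2 of these were at least 4-fold lower and none higher: podocan (Podn, 0.225 against 3.02) and opticin (Optc, 0.0111 against 0.130). Optc lies beside Prelp on chromosome 1, 13.1 kb away by their probes. Only Podn was past 4-fold on the G2KO-labelled array, 5.48-fold higher.

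**Figure D4:**
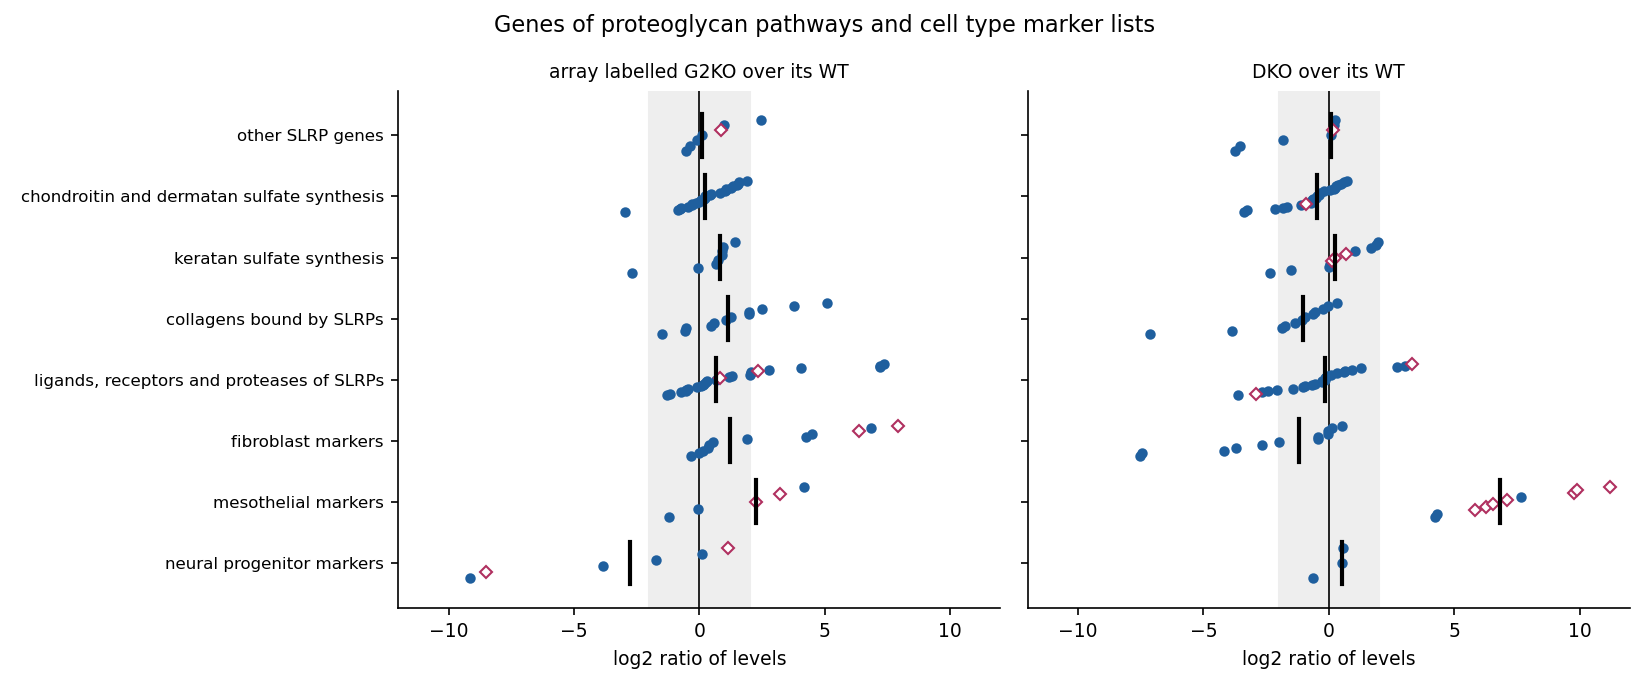
Log2 ratios of the genes of 5 proteoglycan-related lists and 3 cell type marker lists, for the G2KO-labelled array over its WT (left) and DKO over its WT (right). Each point is 1 gene, open diamonds are limits, the bar is the median of the list, and the grey band spans 4-fold either way. The synthesis lists lie mostly within the band, and the mesothelial markers lie right of it in DKO MEFs (median 6.83).

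Markers of some cell types also differed between the arrays. Of the 12 fibroblast markers, Pdgfra and Fap were dim on the G2WT-labelled array, where Thy1 read 0.461 against 53.1 on the G2KO-labelled array. Their summed level was 489.8, 350.2, 433.3 and 580.2 on the arrays labelled G2KO, its WT, DKO and its WT. In DKO MEFs 5 of 12 were at least 4-fold lower, including periostin (Postn, 0.116 against 21.6), Pdgfra, Thy1 and Pdgfrb, and none higher. Over all genes, 4.03% were lower there and 4.04% higher. On the G2KO-labelled array 5 of 12 were higher and none lower, where 3.71% of all genes were higher and 2.02% lower. Fn1, Vim, Sparc and Twist1 stayed within 4-fold. Their log2 ratios were -0.03, -0.05, 0.14 and -0.41 in DKO MEFs and -0.01, -0.34, 0.36 and 0.38 on the G2KO-labelled array. All 10 mesothelial markers were at least 4-fold higher in DKO MEFs. Among them Wt1, a transcription factor of mesothelium, read 8.96 in DKO MEFs and was dim on the other 3 arrays, and Msln (mesothelin) read 100.2 against 0.492 in their WT. On the G2KO-labelled array 3 of 5 measured mesothelial markers were higher by 4-fold or more and none lower. Among them Krt18 (0.0339) and Bnc1 (0.0658) were limits at low signal. Msln was 2.29-fold lower there, at 0.664 against 1.52. The summed level of the list was 1.31 on the G2KO-labelled array and 1.58 on the G2WT-labelled array.

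Among the neural progenitor markers, Sox2, a transcription factor of the neural tube, read 2.37 on the G2WT-labelled array and was dim on the rest, and En2, another, read at most 0.0424 outside that array. Of these 6 markers, 3 were at least 4-fold lower on the G2KO-labelled array, where 2.02% of all genes were. In DKO MEFs 3 could be compared and none was past 4-fold. Of the smooth muscle markers, 2 of 5 were lower in DKO MEFs, where 4.03% of all genes were, and none higher. On the G2KO-labelled array 1 of 5 was higher, where 3.71% of all genes were, and none lower. The summed levels of these markers ran from 44.5 in DKO MEFs to 363.0 on the G2WT-labelled array. Endothelial markers summed to at most 0.118 and macrophage markers to between 11.7 and 22.9, nearly all of it from Itgam (10.99 to 22.2), while Ptprc, Emr1 and Cd68 read at most 0.0368. No ratio or limit of the endothelial or macrophage list reached 4-fold in DKO MEFs or on the G2KO-labelled array. Only 2 of 5 endothelial genes could be compared in each. The endothelial gene Cdh5 on the G2KO-labelled array (at least 2.86-fold higher) and Cd68 in DKO MEFs (at least 3.00-fold higher) were limits. From these a passage of 4-fold cannot be told. What part the makeup of the cultures had in the SLRP levels was not tested.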

How the data were processed

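Cy3-labelled total RNA from 4 MEF preparations was measured on 4 Agilent arrays of 1 slide. The deposited signal intensities come from the authors' use of Agilent's scanner software, Feature Extraction, whose version is 10.7.3.1 by the headers and 10.5.1.1 by the submitters' processing notes; background and spatial trends had been corrected in it. The study's methods describe dye-swapped arrays for G2KO MEFs, whereas the labels describe 1 color. The series' value table repeats these intensities (largest log2 difference 0).

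Each intensity was divided by the 75th percentile over the 43020 non-control spots of its array, which lay between 1586.21 and 2233.61, and taken as log2. Spots marked as outliers (107 to 140 per array) were left out and spots of a probe averaged. The 7 measured members entered a comparison when well above background on at least 1 of its 2 arrays; on a dim array the lowest signal well above background took the place of any signal below it. Of the probes of a gene the brightest was used. No member spot was saturated. With 1 array per group there was no test; genes at least 4-fold different were counted. A limma fit (version 3.58.1, R 4.3.3) took both arrays labelled WT as a group, with 1 residual degree of freedom, and no statement rests on it. Between 65.0% and 72.2% of probes were well above background on an array, and precision is limited by the number of arrays. Calculations used Python 3.11.15, numpy 2.4.6 and pandas 2.3.3, and were tested on simulated data.

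Genes named are the members, Ccng1 and Ccng2, genes with a probe within 500 kb of a member, the 10 genes nearest to Aspn (1 of them not reported here) and 5 nearest to Dcn in pattern, and up to 4 genes of each list with the largest ratio in DKO MEFs, besides Col1a1 and Col3a1. The rule capped these at 30, so marker genes named beyond the cap were chosen after their values were seen. So were, outside the rule, Chsy3, Fap, Fn1, Vim, Sparc, Twist1, Bnc1, Sox1, Sox2, Nes, Pax6, Cdh5, Itgam, Ptprc, Emr1, Cd68, Matn1, Hapln1 and Ibsp. The members and lists were chosen with earlier results of these data known. Lists cover other SLRP genes, sugar chain synthesis, collagens, partners and markers of fibroblast, mesothelial, tendon, cartilage, osteoblast, smooth muscle, endothelial, macrophage and neural progenitor cells. Positions of probes (mm9) were read from the files; promoters are RefSeq's on GRCm38.p6. Alternatives were normexp background correction (offset 50), quantile, median and no scaling, the deposited table, other filters, thresholds of 2-fold and 10-fold, other WT arrays as control, the median over probes, and exchanged labels.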

Additional observations from a re-analysis of the deposited data

Results flagged for a closer look

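Aspn, Omd and Ogn lay past 4-fold in opposite directions in the knockout comparisons. Aspn had a log2 ratio of at least 8.89 on the G2KO-labelled array and was lower in DKO MEFs, with a log2 ratio of -9.82 or beyond. The log2 ratios of Omd were 5.71 and -5.80, and those of Ogn 4.27 and -3.86. With 1 array per group, the difference between the comparisons was not tested. The opposition rests on the labels of the G2KO comparison: with these exchanged, all 3 genes would be lower in both knockouts.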

How the results depend on the processing

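Under the alternatives of scaling, background, filter and probe choice, no member ratio changed sign: 50 of 54 values of the comparison labelled G2KO, 52 of 55 of the DKO comparison and 50 of 54 between the arrays labelled WT moved by less than 1.04 (log2), the SD between the arrays labelled WT. The others were Aspn, Omd and Lum, whose ratios involve dim or near-dim arrays: with normexp Aspn was 6.16 and -7.00 in the knockout comparisons. Part of the pooled values could not move. Each member had 1 probe, the deposited table repeats the unscaled signal, and the filter for both arrays only drops members. Normexp alone moved 3 of 7 members in the comparison labelled G2KO, 2 of 7 in the DKO comparison and 3 of 7 between the arrays labelled WT. Without scaling the median of all genes moved by 0.50 in the comparison labelled G2KO.

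Another control array and exchanged labels turned signs. With the WT array of the DKO comparison as control, the G2KO-labelled array had a median member ratio of -0.98, with Aspn at -0.96, Dcn -1.96, Bgn -0.37, Omd -0.79 and Ogn -2.56, and 2 members past 4-fold. With exchanged labels the median was -4.27, with Aspn at -8.89, Dcn -3.39, Bgn -5.02, Omd -5.71 and Ogn -4.27. Against the mean of both WT arrays 3 members were past 4-fold, where 2.31% of all genes were, and the median was 0.85. In DKO MEFs the G2WT-labelled array as control gave a median of 3.102, with Omd at 0.70 and Ogn at 2.97, and the mean of both WT arrays a median of -0.45. The limma fit called 0 of 30344 probes for either knockout at an adjusted p of 0.05 (Benjamini-Hochberg), while unadjusted p-values under that limit numbered 475 in the first comparison and 2498 in the second, none of a member. No paired analysis of a single knockout was possible because each group has 1 array, so the groups compared share a single replicate number. A fit blocked by comparison would average the 2 knockouts and was not run. The limma fit ignored which WT array belonged to which knockout.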

Other observations

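Genes of skeletal tissue outside the SLRP family were read beside the members. Dmp1, an acidic phosphoprotein of bone matrix, read 0.550 on the G2KO-labelled array, 0.0250 on the G2WT-labelled array, 0.00178 (dim) in DKO MEFs and 0.600 in their WT, at least 82.2-fold lower in DKO MEFs. Tnmd (tenomodulin), a membrane protein of tendon, read 0.0612 and 0.0927 on the G2KO-labelled array and in DKO WT and was dim on the other two. Sox9, the transcription factor of cartilage, read 0.831, 0.0439, 0.224 and 1.39 on the arrays labelled G2KO, its WT, DKO and its WT. Spp1 (osteopontin) read 34.5, 9.25, 3.57 and 20.8. In DKO MEFs 2 of 4 measured osteoblast markers, 2 of 5 tendon markers (Tnmd and Egr2) and 1 of 5 cartilage markers were at least 4-fold lower and none higher. On the G2KO-labelled array 1 of 4, 1 of 6 and 1 of 5 were higher, and 1 cartilage marker (Matn3) was lower. Over all genes, 4.03% were lower in DKO MEFs, and 3.71% were higher and 2.02% lower on the G2KO-labelled array. These counts rest on 1 or 2 genes of a list. Of 8 cartilage and 6 osteoblast markers with a probe, Matn1, Hapln1 and Ibsp were dim on all 4 arrays, and each of the others was well above background on at least 1.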
